A study of Rattus norvegicus with 12 samples.

Results

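The genes described here build, cross-link, bind or cut the extracellular matrix of the mammary gland or mark the fibroblasts that make it. They were chosen by name and not by a cut on their values, though with earlier results of these data known. Of 54 symbols listed, a gene was kept when a probe set on the array carried its symbol alone. This left 41 of the 54, each with 1 probe set. The 13 genes without such a probe set were the collagen VI genes Col6a1, Col6a2 and Col6a3, the basement membrane genes Col4a2, Col15a1, Col18a1, Lama2, Lama4, Lamb1, Nid1 and Hspg2, and the glycoprotein genes Thbs2 and Tnc, and they are not analysed here. The basement membrane was thus read from 3 of its 11 listed genes and collagen VI from none.

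Whole mammary glands of 12 female Lewis rats without a stated genetic modification were profiled, each rat on its own Affymetrix rat gene array, and each of the 4 groups held 3 rats. All rats were ovariectomized at about 10 weeks of age and dosed under the skin from 14 days later with E2 + 3-MC, with E2 alone, with 3-MC alone or with the DMSO and castor oil vehicle. E2 is 17β-estradiol, the main ovarian estrogen, given at 4 μg per kg and day, and 3-MC is 3-methylcholanthrene, a polycyclic aromatic hydrocarbon that activates the aryl hydrocarbon receptor (AHR), given at 15 mg per kg and day. According to the methods 3 doses were given 24 hr apart and necropsy followed 24 hr later, while the labels speak of 48 h of treatment. Because the ovaries of all 12 rats had been removed, the vehicle and 3-MC groups had no ovarian estrogen. The deposited values are linear intensities, and 16 was added to each before taking log2. An intensity depends on the probes of a gene, so levels are compared between rats for 1 gene and never between genes.

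Mammary epithelium grows as ducts into a fat pad that is crossed by connective tissue. Fibroblasts secrete fibrillar collagens as procollagens, which are trimmed, assembled into fibrils with small leucine-rich proteoglycans on their surface, and joined by lysyl oxidases. Beneath the epithelium and around fat cells and vessels lies a basement membrane of laminin, collagen IV and nidogen, and elastic fibres consist of elastin on a fibrillin scaffold. Matrix metalloproteinases and ADAMTS proteases cut these proteins, and tissue inhibitors of metalloproteinases (TIMPs) block them. Duct outgrowth at puberty is known to need both estrogen and matrix remodeling.

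Promoter sequences are shown for 3 genes whose values are given below. Of the 41 genes, 26 had a RefSeq promoter window in GRCr8 of 300 bases (250 before the start site and 50 from it on), and the 250 bases before the start site are printed. Col1a2 was chosen as a collagen gene with lower intensity in E2 rats, and Mmp3 and Mmp12 as metalloproteinase genes on the same chromosome that both held an AP-1 match and a TATA box and of which Mmp3 did not overlap between E2 and vehicle rats while Mmp12 did. Capitals mark every match on either strand to the AP-1 motif TGANTCA, the TATA box TATAAA, the estrogen response element (ERE) half-site GGTCA, the full ERE (GGTCA, any 3 bases, TGACC) or the core GCGTG of the xenobiotic response element (XRE), at which the AHR binds.
Col1a2 promoter, chr4:33518307-33518556, plus strand: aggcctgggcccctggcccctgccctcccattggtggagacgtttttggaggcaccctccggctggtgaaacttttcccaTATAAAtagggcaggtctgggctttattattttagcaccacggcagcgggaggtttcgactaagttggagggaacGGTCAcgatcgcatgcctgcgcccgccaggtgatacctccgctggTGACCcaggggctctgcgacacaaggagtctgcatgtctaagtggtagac
Mmp3 promoter, chr8:12925031-12925280, plus strand: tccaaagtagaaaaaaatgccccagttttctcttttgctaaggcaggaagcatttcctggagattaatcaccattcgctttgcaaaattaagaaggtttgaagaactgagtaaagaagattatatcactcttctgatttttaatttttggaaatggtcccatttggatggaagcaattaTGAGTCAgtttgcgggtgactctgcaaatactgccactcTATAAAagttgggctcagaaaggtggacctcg
Mmp12 promoter, chr8:12866402-12866651, plus strand: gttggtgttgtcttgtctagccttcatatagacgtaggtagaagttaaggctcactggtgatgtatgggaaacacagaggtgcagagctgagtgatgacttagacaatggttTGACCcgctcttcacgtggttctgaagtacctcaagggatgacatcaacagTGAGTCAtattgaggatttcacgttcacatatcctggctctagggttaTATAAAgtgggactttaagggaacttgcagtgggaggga
The Col1a2 promoter held ERE half-sites at positions -95 to -91 and -50 to -46 from the start site and TATAAA at -170 to -165. The Mmp3 promoter held TGAGTCA at -71 to -65 and TATAAA at -32 to -27. In the Mmp12 promoter the same 7 letters stood at -87 to -81 and TATAAA at -39 to -34, with an ERE half-site at -138 to -134. Over whole windows, an AP-1 match was found in 3 of the 26 genes and in 7.33% of all 33469 windows, and TATAAA in 7 genes (26.9%) against 14.2% of all windows. An ERE half-site was present in 8 genes (30.8%) against 40.5% of all windows, and the XRE core in 10 genes (38.5%) against 29.7%. None of the 26 windows held a full ERE, which 0.0269% of all windows held. A half-site is also part of a full ERE, and such matches are letters in a window, not measured binding.

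On the series as a whole, 23371 of 29214 probe sets passed the filter on low values, among them all 41 genes. Pgr, the progesterone receptor gene and a classical estrogen target, lay between 411 and 619 in E2 + 3-MC rats and between 722 and 838 in E2 rats, against 27.5 to 76.6 in 3-MC rats and 31.1 to 45.6 in vehicle rats. Cyp1b1, an AHR target, was 154, 560.2 and 407 in E2 + 3-MC rats 1 to 3 and 553, 101 and 588 in 3-MC rats 1 to 3, against 161, 127 and 211 in vehicle rats. The arrays labelled E2 + 3-MC rat 1 and 3-MC rat 2 were thus within or below the vehicle range of Cyp1b1. Some results that involve 3-MC, mainly counts of called genes and a few adjusted p, are also given without these arrays. All other results that involve 3-MC, among them the medians and overlaps, include these arrays. The array medians differed (85.7 to 109.5). Skeletal muscle markers, which could enter with underlying muscle, differed widely within groups: their median level ran from -4.01 to 2.32 log2 units from the vehicle mean among vehicle rats. The labelled tissue was checked against its markers: luminal epithelium, adipocyte and fibroblast markers were at 155 or more (Prlr), 618 or more (Lep) and 88.9 or more (Fap) on every array.

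With E2 alone, most matrix genes were lower than in vehicle rats, but by less than the test could call. Of the 41 genes, 33 had a lower mean (80.5%, against 46.2% of all probe sets) and 8 a higher one in E2 rats, and the median change was -0.19 on the log2 scale, against a median of 0.02 over all tested probe sets. No gene of the 41 passed the threshold used throughout (Benjamini-Hochberg adjusted p under 0.05 over all tested probe sets in limma, and at least 1.5-fold), where 1.58% of all probe sets passed. At an unadjusted p under 0.05, 14 genes were lower (34.1%, against 4.89% of all probe sets) and 3 higher (7.32%, against 6.82%). In 19 genes (46.3%) every E2 rat lay below every vehicle rat, which held for 8.05% of all probe sets, and in 3 genes (Postn, Mmp3 and Mmp14) every E2 rat lay above, against 10.1% of all probe sets. Because the array medians differed, overlap was also read after quantile normalization and after centring each array on its median, and lower without overlap were then 13 genes (10.4% of all probe sets) and 17 genes (11.3%). The 4 smallest adjusted p were 0.0628 for Nid2, 0.0735 for Fbn1, 0.0914 for Postn and 0.0980 for Dcn.

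Across whole glands, fewer cells of a type and less RNA per cell cannot be told apart, and other cell types shifted beside the matrix genes. The 10 luminal epithelium markers were all higher with E2 (median 0.73, 5 past the threshold), with summed intensities of 9153 to 11694 in E2 rats and 5854 to 6931 in vehicle rats. The 9 measured endothelium markers of 10 were all lower (median -0.48, none past the threshold), with sums of 3546 to 4102 in E2 rats and 4692 to 5844 in vehicle rats, and the 6 mural cell markers were lower too (median -0.41, 1 past the threshold), with sums of 2942 to 3261 in E2 rats and 3729 to 4550.3 in vehicle rats. Of the 9 measured adipocyte markers of 10, 8 were lower (median -0.30, none past the threshold), with sums of 18443 to 21397 in E2 rats and 21679.8 to 25646 in vehicle rats. The 9 measured skeletal muscle markers of 10 were all lower as well (median -1.29, none past the threshold), with sums of 1077 to 7461 in E2 rats and 490.1 to 37363 in vehicle rats, which overlapped. None of these markers was at 0 in any rat. All 6 measured proliferation markers of 7 were past the threshold as higher (median 1.96). The 6 measured basal and myoepithelium markers of 8 were split, 4 higher and 2 lower (median 0.10, 2 past the threshold as higher). Among the 10 myeloid markers 9 were lower (median -0.42), and 1 was higher and past the threshold. Lymphocyte markers, 6 measured of 7, were lower in 5 and higher in 1 (median -0.27, none past the threshold). The part of such shifts in the matrix values was not tested.

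**Figure D1:**
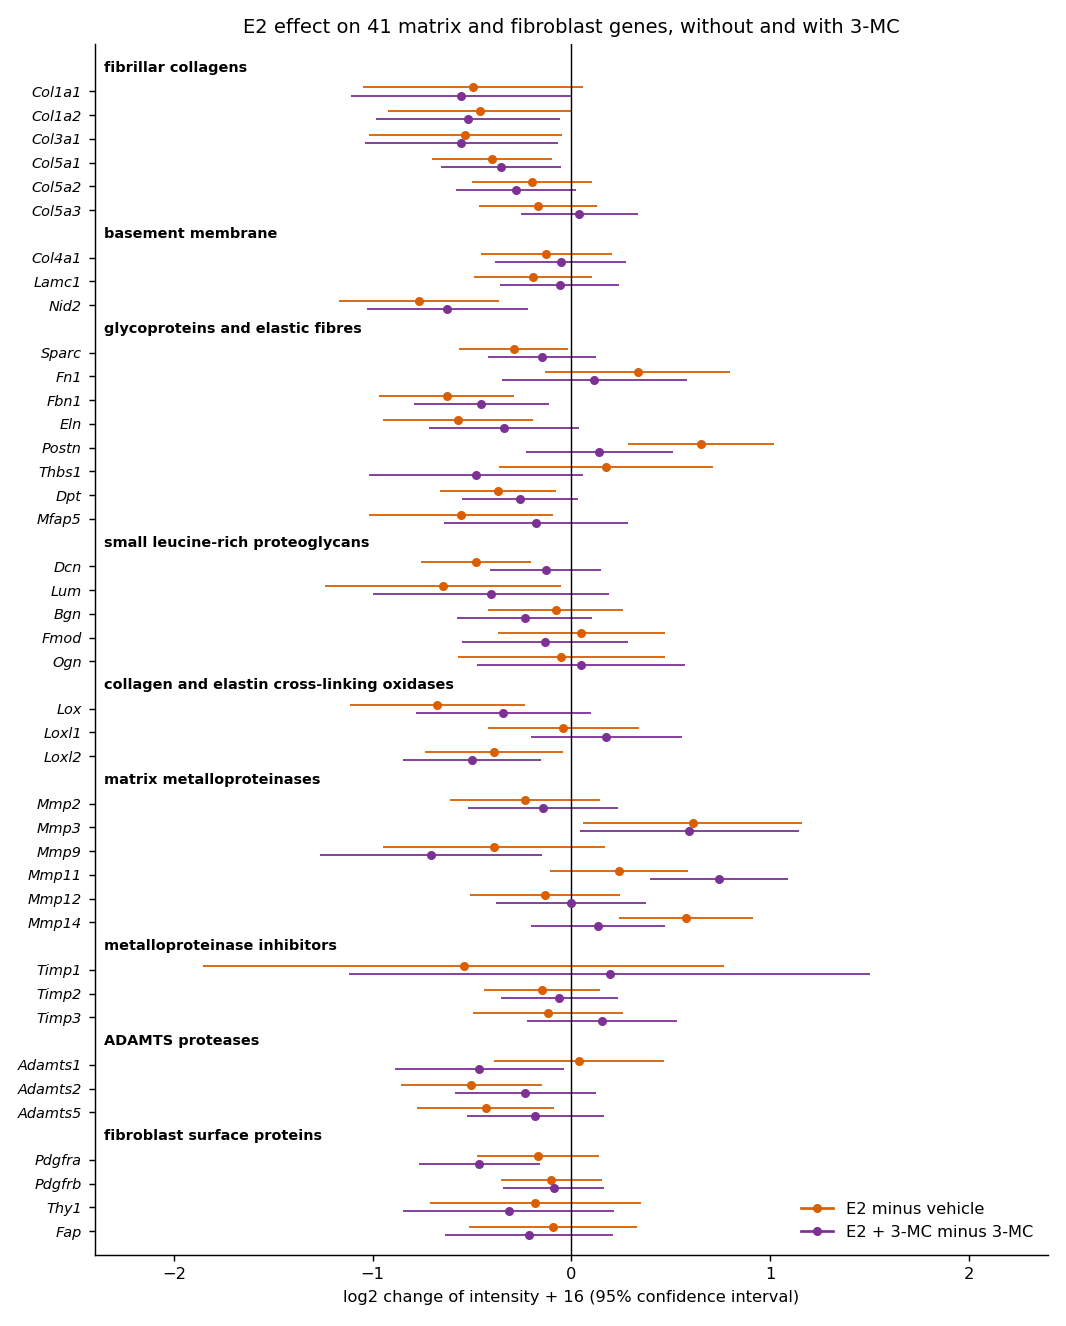
Log2 change of each of the 41 genes with E2 in rats without 3-MC (E2 against vehicle) and in rats with 3-MC (E2 + 3-MC against 3-MC), as points with 95% confidence intervals from limma, grouped by role. Most points lie left of 0 in both comparisons, while Postn, Mmp3, Mmp11 and Mmp14 lie right of it.

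All 6 fibrillar collagen genes had a lower mean in E2 rats than in vehicle rats (median -0.43, range -0.53 to -0.17), and 5 of the 6 did not overlap between the groups (8.05% of all probe sets were lower without overlap). After quantile normalization or median centring only Col5a1 of the 5 did not overlap. Col3a1, which encodes the collagen III of soft connective tissue, was at 1410.1, 1866 and 2119.9 in E2 + 3-MC rats, 1327, 1732 and 2161 in E2 rats, 2205, 3505 and 2306 in 3-MC rats and 2172, 2309 and 3039 in vehicle rats. Every rat given E2 thus lay below every rat not given E2, although the highest E2 rat was only just below the lowest vehicle rat, and under both rescalings E2 and vehicle rats overlapped. The change was -0.53 (95% confidence interval -1.02 to -0.049) for E2 against vehicle, with an adjusted p of 0.356, and -0.55 (-1.04 to -0.069) for E2 + 3-MC against 3-MC, with an adjusted p of 0.954, both in limma. Col1a2, 1 of the 2 chains of collagen I, was at 1326, 1652 and 1855 in E2 rats and 1903, 2086 and 2682 in vehicle rats, which did not overlap as deposited but did under both rescalings, and its partner Col1a1 was at 1324, 1615 and 1842 in E2 rats and 1768, 2243 and 2805 in vehicle rats, which overlapped. Col5a1, a chain of the collagen V that nucleates fibrils, averaged 312 ± 33.8 in E2 + 3-MC rats and 296 ± 24.6 in E2 rats, against 405 ± 61.4 in 3-MC rats and 396 ± 42.3 in vehicle rats (SD, n = 3 each).

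Col1a1, Col1a2 and Col3a1 ranked the 3 rats of a group identically in all 4 groups. Col5a1 matched that order in 3 of the 4 groups and Col5a2 and Col5a3 in 1 each. In 3-MC rats the highest of these 4 genes was rat 2, an array of low Cyp1b1, with 3416 for Col1a1, against 1728 and 2195 in rats 1 and 3. In E2 + 3-MC, E2 and vehicle rats the highest for Col1a1 was rat 3 and the lowest rat 1. The genes of 1 array share its RNA, so this order describes the rats and not independent measurements. Over the 41 genes the median SD within groups was 0.23 log2 units, with a range of 0.10 for Pdgfrb to 0.95 for Timp1, and over all tested probe sets it was 0.19.

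**Figure D2:**
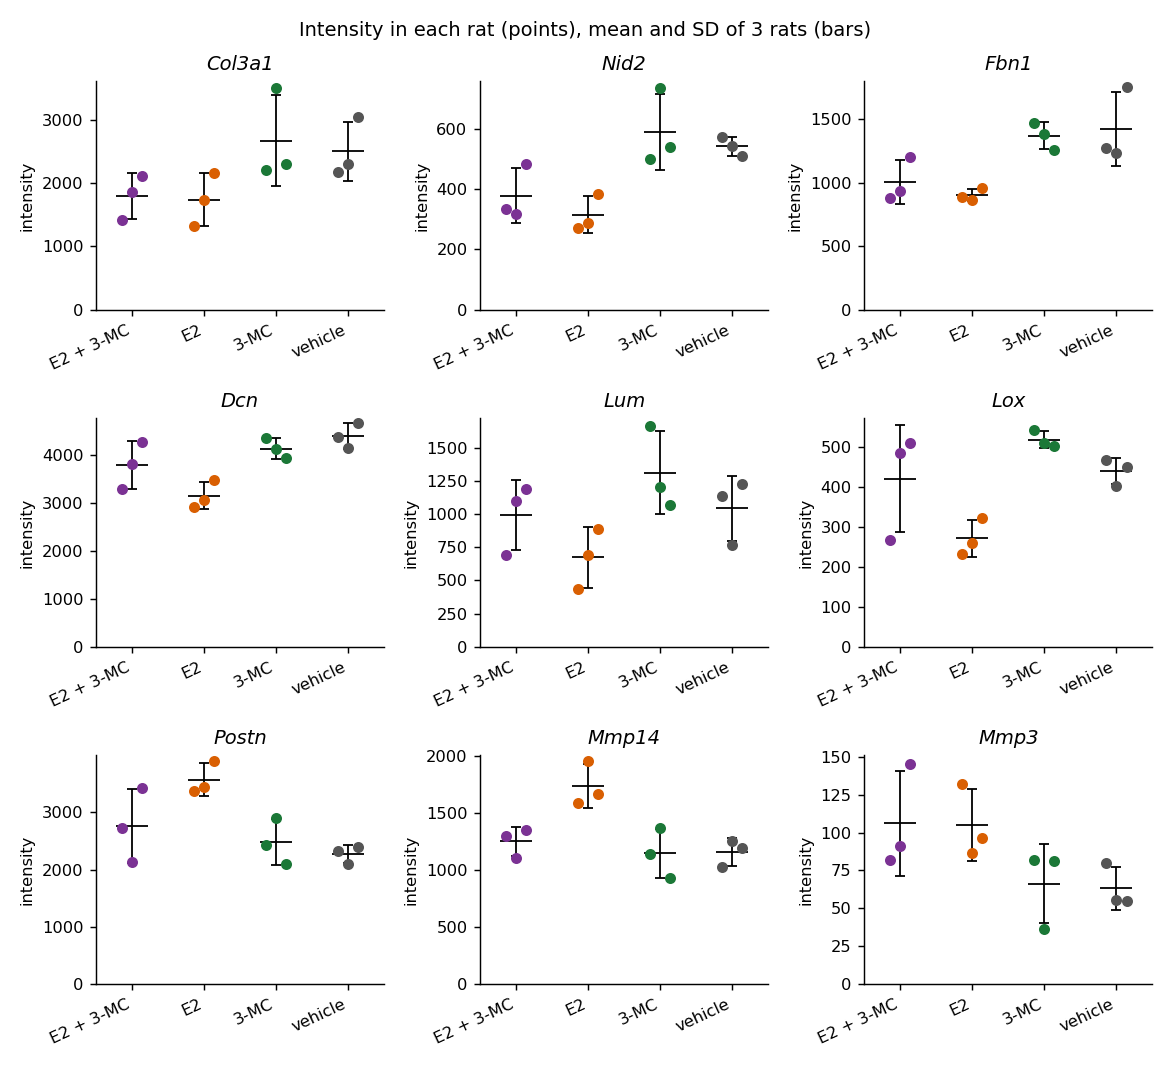
Intensity (linear axis from 0) of 9 named genes in each rat, with the mean and SD of 3 rats per group, in the order E2 + 3-MC, E2, 3-MC and vehicle. Points run from rat 1 on the left to rat 3 on the right. Col3a1, Nid2 and Fbn1 lie lower in every rat given E2 than in every rat not given it in these deposited intensities (under quantile normalization or median centring only Fbn1 of the 3 does), while Postn and Mmp14 have their highest means in E2 rats.

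Of the 3 measured basement membrane genes, Nid2 was the 1 that fell past the threshold. Nid2 encodes nidogen 2, which links laminin to collagen IV. Its intensity was 336, 319 and 482 in E2 + 3-MC rats, 273, 288 and 385 in E2 rats, 500.5, 735 and 539 in 3-MC rats and 572, 545 and 511 in vehicle rats. All 6 rats given E2 lay below all 6 rats not given it, and the nearest pair was E2 + 3-MC rat 3 and 3-MC rat 1. Under both rescalings E2 rats still lay below vehicle rats, but E2 + 3-MC and 3-MC rats overlapped. The change was -0.77 ± 0.19 (SE) for E2 against vehicle and -0.62 ± 0.19 for E2 + 3-MC against 3-MC, with adjusted p of 0.0628 and 0.613. When the 2 E2 groups were set against the 2 groups without E2 (the E2 main effect), Nid2 fell by 0.70 on the log2 scale (95% confidence interval -0.98 to -0.41, 1.62-fold), with an adjusted p of 0.0191 in limma. It was the only 1 of the 41 genes past the threshold in that comparison, where 0.359% of all probe sets were called lower and 1.12% in either direction. Without any 1 of E2 rat 1, E2 rat 2, E2 + 3-MC rat 1 or vehicle rat 1 the call was lost (adjusted p of 0.0611, 0.0649 and 0.0603 without the first 3, and just over the threshold without vehicle rat 1), and without both arrays of low Cyp1b1 the adjusted p was 0.106.

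The other basement membrane genes overlapped between E2 and vehicle rats as deposited and after quantile normalization. After median centring 2 of the 3 measured genes, Nid2 and Lamc1, were lower without overlap (11.3% of all probe sets). Lamc1, the laminin γ1 chain found in most laminins, was at 979, 835 and 963 in E2 rats and 1073, 962 and 1151 in vehicle rats, which overlapped, and averaged 882 ± 98.3 in E2 + 3-MC rats and 921 ± 124 in 3-MC rats (SD, n = 3 each). Its change with E2 alone was -0.19, and that of Col4a1, a collagen IV chain, was -0.13. Of the 8 other measured basement membrane genes outside the list, Smoc2, a secreted calcium-binding matrix protein, rose with E2. It was at 279, 241 and 286 in E2 rats and 119, 112 and 138 in vehicle rats, a change of 1.04 ± 0.17 (SE) with an adjusted p of 0.00772 in limma. In rats given 3-MC the values were closer together, at 153, 142 and 223 in E2 + 3-MC rats and 119, 161 and 134 in 3-MC rats. The difference between its 2 E2 effects was -0.76, with an adjusted p of 0.982.

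The 8 glycoprotein and elastic fibre genes lay on both sides of 0 (median -0.33 for E2 against vehicle, range -0.63 to 0.65). Fbn1 encodes fibrillin 1, the microfibril on which elastin is laid. It was at 876, 936 and 1198 in E2 + 3-MC rats, 883, 865 and 955 in E2 rats, 1469.8, 1381 and 1259 in 3-MC rats and 1271, 1231 and 1753 in vehicle rats. No rat given E2 reached the level of any rat not given it, as deposited and under both rescalings. The change was -0.63 ± 0.16 (SE) for E2 against vehicle, and the E2 main effect was -0.54 with an adjusted p of 0.0289 in limma, short of 1.5-fold at 1.45-fold. Without both arrays of low Cyp1b1 that adjusted p was 0.147. Eln, elastin itself, averaged 371 ± 41.1 in E2 + 3-MC rats and 358 ± 44.1 in E2 rats, against 481 ± 109.7 in 3-MC rats and 539.7 ± 75.7 in vehicle rats (SD, n = 3 each). Mfap5, a microfibril component, and Dpt, dermatopontin, also did not overlap between E2 and vehicle rats, with changes of -0.55 and -0.37.

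Sparc, a collagen-binding glycoprotein, was at 4747, 4506 and 5002 in E2 rats and 5472, 6043 and 5943 in vehicle rats, which did not overlap as deposited but did after quantile normalization, and at 4597, 4516 and 5799 in E2 + 3-MC rats and 5264, 5872 and 5294 in 3-MC rats, which did. Its change with E2 alone was -0.29 with an adjusted p of 0.377. Periostin (Postn), a matricellular protein that binds collagen and integrins, ran the other way. It was at 3369, 3444 and 3906 in E2 rats and 2317, 2095 and 2394 in vehicle rats, a change of 0.65 ± 0.17 (SE) and 1.57-fold, with an adjusted p of 0.0914 in limma. Every E2 rat was above every vehicle rat. In E2 + 3-MC rats Postn was at 2721, 2129 and 3428, which overlapped with 2429, 2902 and 2099.9 in 3-MC rats. The 2 E2 effects differed by -0.51 (95% confidence interval -1.03 to 0.011), with an unadjusted p of 0.0544 and an adjusted p of 0.982 in limma. Fn1, fibronectin, and Thbs1, thrombospondin 1, had higher means in E2 rats than in vehicle rats, but vehicle rat 3 had the highest value of both genes in those 2 groups (3751 for Fn1 and 1645 for Thbs1).

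The 5 small leucine-rich proteoglycans had a median change of -0.08 with E2 (range -0.65 to 0.05). Dcn encodes decorin, which coats collagen fibrils. It was at 2933, 3061 and 3483 in E2 rats and 4392, 4149 and 4688 in vehicle rats, well separated, with a change of -0.48 ± 0.13 (SE) and an adjusted p of 0.0980 in limma. In E2 + 3-MC rats it was at 3295, 3831 and 4287, which overlapped with 4364, 4129.5 and 3941 in 3-MC rats. Lum, lumican, was at 435, 694 and 889 in E2 rats and 1134, 766 and 1224 in vehicle rats, which overlapped. Its change was -0.65 and rested much on single rats, at -0.37 without E2 rat 1 and -0.87 without E2 rat 3, while that of Dcn stayed between -0.55 and -0.43 whichever rat was left out. It averaged 995 ± 264 in E2 + 3-MC rats and 1310.5 ± 310.4 in 3-MC rats (SD, n = 3 each), which also overlapped. Bgn, Fmod and Ogn (biglycan, fibromodulin and osteoglycin) overlapped between E2 and vehicle rats with changes of -0.079, 0.049 and -0.051.

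Lysyl oxidases, which cross-link collagen and elastin, had a median change of -0.39 with E2. Lox was at 231, 259 and 322 in E2 rats and 467, 402 and 448 in vehicle rats, without overlap, a change of -0.68 ± 0.20 (SE) with an adjusted p of 0.148 in limma. Without both arrays of low Cyp1b1, which belong to neither group but enter the shared estimate of the spread, that adjusted p was 0.0320 and Lox passed the threshold, as did Nid2 with 0.0440. With 3-MC added, Lox was at 266, 485 and 510.0 in E2 + 3-MC rats and 542, 509 and 501 in 3-MC rats. The low value there was in the array labelled E2 + 3-MC rat 1. Loxl2 did not overlap between E2 and vehicle rats (change -0.39), and Loxl1 was at 497, 542 and 520.0 in E2 rats and 437, 483 and 725 in vehicle rats, a change of -0.04 that became 0.17 without vehicle rat 3.

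**Figure D3:**
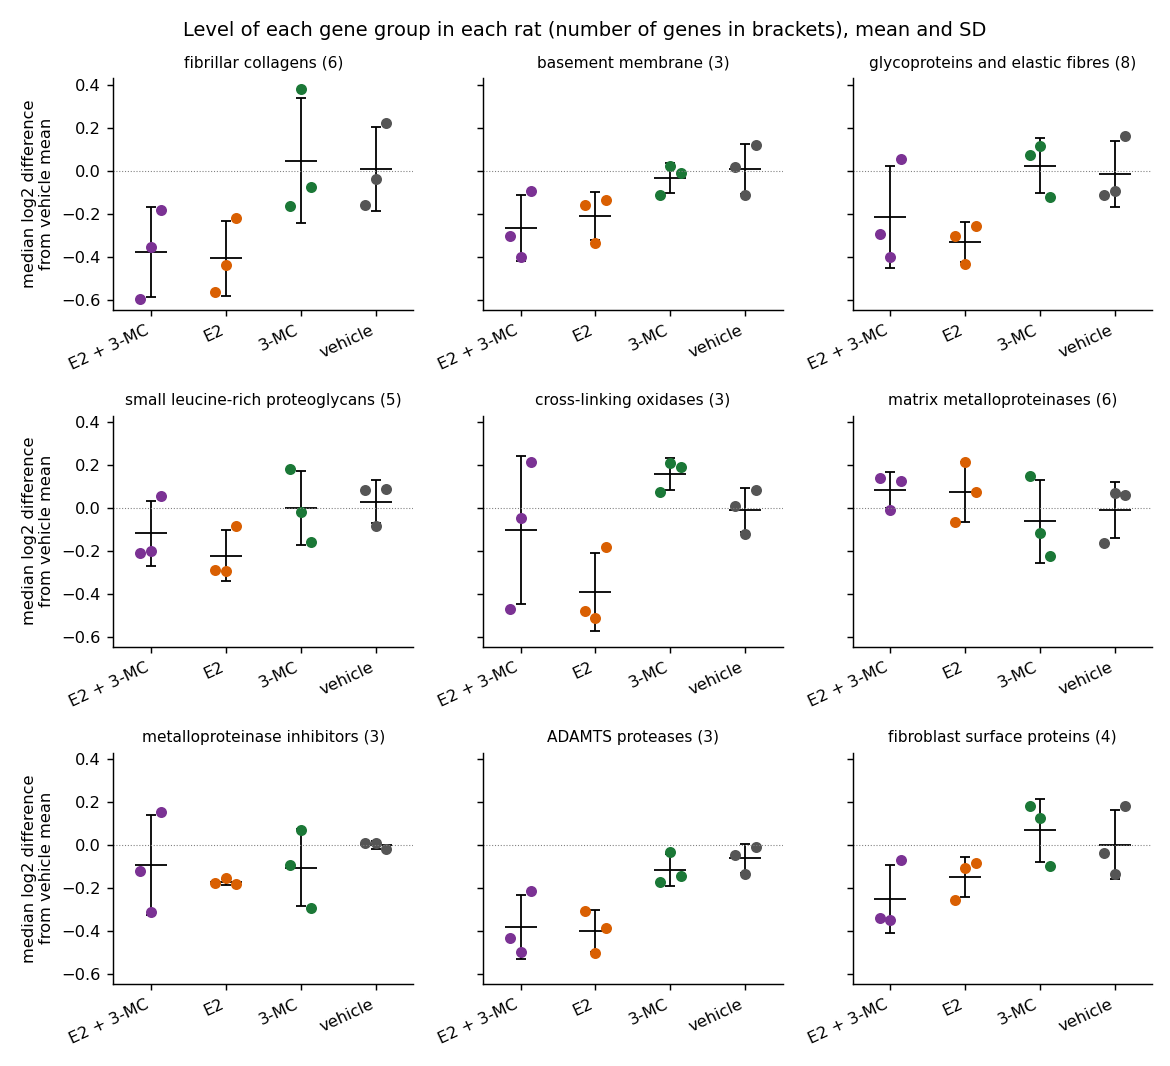
Level of each of the 9 gene groups in each rat, as the median log2 difference of its genes from the vehicle mean, with the mean and SD of 3 rats per group. In the deposited intensities fibrillar collagens lie between -0.60 and -0.18 in the 6 rats given E2 and between -0.16 and 0.38 in the 6 rats not given it, while matrix metalloproteinases lie between -0.22 and 0.21 in all 12 rats.

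The 6 matrix metalloproteinases had a median change of 0.05 with E2, and 3 were higher and 3 lower. Mmp14, a membrane-anchored collagenase that also activates Mmp2, was at 1587, 1958 and 1671 in E2 rats and 1024, 1258 and 1196 in vehicle rats, without overlap, a change of 0.58 ± 0.16 (SE) with an adjusted p of 0.101 in limma. In E2 + 3-MC rats it was at 1301, 1107 and 1349.7, below every E2 rat and overlapping with 1142, 1369 and 936 in 3-MC rats. The change for E2 + 3-MC against E2 was -0.47, with an adjusted p of 0.466. Mmp3, stromelysin 1, whose promoter is printed above, was at 81.6, 91.0 and 146 in E2 + 3-MC rats, 132, 86.8 and 96.7 in E2 rats, 81.7, 36.1 and 80.9 in 3-MC rats and 79.8, 55.2 and 54.8 in vehicle rats. Rats given E2 lay above rats not given it, except that E2 + 3-MC rat 1 and 3-MC rat 1 were level. Under both rescalings E2 + 3-MC and vehicle rats overlapped. The E2 main effect was 0.60 with an adjusted p of 0.135. Mmp12, macrophage elastase, averaged 69.7 ± 9.49 in E2 rats and 77.9 ± 8.30 in vehicle rats (SD, n = 3 each), which overlapped.

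Mmp11, stromelysin 3, which fibroblasts near invading or remodeling epithelium are known to express, was at 153, 173 and 129 in E2 + 3-MC rats, 103, 144 and 115 in E2 rats, 90.1, 74.9 and 86.6 in 3-MC rats and 89.9, 124 and 85.7 in vehicle rats. Every E2 + 3-MC rat lay above every 3-MC rat, as deposited and under both rescalings. Every E2 + 3-MC rat also lay above every vehicle rat as deposited, but not under either rescaling, and E2 and vehicle rats overlapped. Its change was 0.74 ± 0.16 (SE) for E2 + 3-MC against 3-MC, the smallest adjusted p of the 41 genes in that comparison at 0.182 in limma, and the E2 main effect was 0.49 with an adjusted p of 0.0487, below 1.5-fold at 1.41-fold. Leaving out 1 rat moved that adjusted p between 0.0233 (without vehicle rat 2) and 0.149 (without E2 rat 2), and it was 0.0731 after quantile normalization and 0.0773 after median centring. Mmp11 also had the smallest unadjusted p for a difference between the 2 E2 effects, 0.0465 with a difference of 0.50 (95% confidence interval 0.0091 to 0.99), and an adjusted p of 0.982. Mmp9, gelatinase B of neutrophils and macrophages, was lower without overlap in E2 rats than in vehicle rats, and was at 222, 136 and 397 in 3-MC rats.

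Of the 3 ADAMTS proteases, Adamts2, which removes the amino-terminal propeptide of procollagen, was at 201, 220.0 and 238 in E2 rats and 306, 332 and 316 in vehicle rats, a change of -0.50 with an adjusted p of 0.188. Adamts5, an aggrecanase, was at 1215, 985 and 1150.3 in E2 rats and 1760.0, 1370.5 and 1416 in vehicle rats, a change of -0.43 with an adjusted p of 0.270. Neither overlapped between E2 and vehicle rats, and both overlapped between E2 + 3-MC and 3-MC rats. Adamts1 was at 360.2, 343 and 382 in E2 + 3-MC rats and 604, 479.6 and 443 in 3-MC rats, without overlap, whereas its 659, 518 and 375 in E2 rats overlapped with 476, 408 and 609 in vehicle rats. For the TIMPs Timp2 and Timp3 the change with E2 alone was -0.15 and -0.12. Timp2 was at 1524, 1557 and 1578 in E2 rats and 1734, 1735 and 1699.8 in vehicle rats, close together within each group and without overlap, though they overlapped after quantile normalization.

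The 4 fibroblast surface proteins all had lower means with E2, though none passed the test. Pdgfra, the receptor that marks most mammary fibroblasts, averaged 412 ± 30.6 in E2 + 3-MC rats and 476 ± 40.1 in E2 rats, against 573 ± 19.8 in 3-MC rats and 542 ± 108 in vehicle rats (SD, n = 3 each). It did not overlap between E2 + 3-MC and 3-MC rats, where the change was -0.46 with an adjusted p of 0.633. Thy1, a surface glycoprotein of fibroblasts, was at 314, 453 and 604 in E2 rats and 457, 439.8 and 634 in vehicle rats, which overlapped, and its change of -0.18 became 0.05 without E2 rat 1. Pdgfrb, which mural cells also carry, had a change of -0.10 and Fap, fibroblast activation protein, of -0.094. The median over the 4 genes was -0.13 with E2 alone, beside -0.43 over the 6 fibrillar collagens.

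The effect of E2 was measured again in rats given 3-MC. E2 + 3-MC against 3-MC shares no array with E2 against vehicle. Of the 41 genes, 28 (68.3%) had a mean difference below 0 in both comparisons, which held for 24.5% of all probe sets, and 5 (Fn1, Postn, Mmp3, Mmp11 and Mmp14) were above 0 in both, against 31.9% of all probe sets. In Col1a2, Col3a1, Col5a1, Nid2 and Fbn1 (12.2%) the groups did not overlap in either comparison and were lower both times, which held for 1.03% of all probe sets. That set depended on the scaling: after quantile normalization it was Fbn1, Dcn, Dpt and Mmp9 (1.39% of all probe sets) and after median centring Fbn1 and Mmp9 (1.68%), so that Fbn1 alone was in all 3. In E2 + 3-MC against 3-MC the median was -0.18 (0.02 over all probe sets), no gene was called (0.111% of all probe sets were), 7 genes were lower without overlap (17.1%, against 3.48% of all probe sets) and 1, Mmp11, was higher (2.44%, against 4.48%). Lower without overlap there were 8 genes (5.77%) after quantile normalization and 5 genes (7.4%) after median centring. No gene of the 41 was called for a difference between the 2 E2 effects (0 of all probe sets in limma, of which 4.42% had an unadjusted p under 0.05), and the 95% confidence interval for Col3a1, -0.71 to 0.67, leaves room for differences larger than the effect itself. E2 + 3-MC against vehicle shares arrays with both comparisons. It had a median of -0.21, no gene called (0.163% of all probe sets) and 11 genes lower without overlap (26.8%, against 3.68%), which became 18 genes (9.12% of all probe sets) after quantile normalization and 16 genes (11.1%) after median centring.

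Without both arrays of low Cyp1b1 no gene of the 41 was called in E2 + 3-MC against 3-MC or in E2 + 3-MC against vehicle either. The marker values that follow are for E2 + 3-MC against 3-MC with no array left out. The luminal epithelium markers had a median change of 0.17, with none of 10 past the threshold. Their sums were 6858 to 8867 in E2 + 3-MC rats and 5951 to 7881 in 3-MC rats. The endothelium markers had a median of -0.16, with none of 9 past the threshold. Their sums were 3875 to 4975 in E2 + 3-MC rats and 4637 to 5855 in 3-MC rats. The 6 mural cell markers had a median of -0.28. Of the 9 measured adipocyte markers, 6 were lower and 3 higher (median -0.02, none past the threshold). Adipocyte sums were 19748 to 27217 in E2 + 3-MC rats and 21046 to 25266 in 3-MC rats, which overlapped. All 9 measured skeletal muscle markers were lower (median -2.24, none past the threshold), with sums of 676 to 2190.2 in E2 + 3-MC rats and 560.5 to 26589 in 3-MC rats, which overlapped. Whether any of these medians differed from those with E2 alone was not tested. With no array left out, the fibrillar collagens had a median of -0.44 in E2 + 3-MC against 3-MC, beside -0.43 with E2 alone.

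With all 12 arrays, 3-MC moved none of these genes past the threshold. In 3-MC against vehicle the median over the 41 genes was -0.01, no gene was called (0 of all probe sets in limma, 4.24% with an unadjusted p under 0.05), and only Lox was higher without overlap (2.44%, against 4.71% of all probe sets), at 542, 509 and 501 in 3-MC rats and 467, 402 and 448 in vehicle rats. Thbs1 had the largest change with a small unadjusted p, 0.74 (unadjusted p = 0.0105, adjusted p = 0.920 in limma), and was at 1944, 1487 and 2089 in 3-MC rats and 840.4, 916 and 1645 in vehicle rats, which overlapped through vehicle rat 3. Same-numbered 3-MC and vehicle rats deviated together from their group means, and within these numbered pairs Thbs1 was higher in the 3-MC rat in 3 of 3 (by 1.19, 0.69 and 0.34 on the log2 scale), as were Timp1 (1.39, 0.45 and 0.45), Lox (0.21, 0.33 and 0.16) and the median level of 10 myeloid markers (0.92, 0.067 and 0.90 in 3-MC rats 1 to 3, against -0.16, -0.52 and 0.76 in vehicle rats 1 to 3). The labels and methods do not name such pairs, which were formed from these same values, so the pair counts are a description only. Skeletal muscle markers also matched by number. Their level was far below the vehicle mean in rat 3 of both groups (-4.01 in vehicle and -3.67 in 3-MC rats). In rats 1 and 2 of both groups it was above that mean. The part of such tissue differences in the pairing was not tested. Of all probe sets 23.4% were higher in 3 of 3 pairs, against 4 of the 41 genes (9.76%). Lower in 3 of 3 pairs were 8.75% of all probe sets and 7 of the 41 genes (17.1%), namely Col5a3, Lamc1, Sparc, Dcn, Fmod, Ogn and Timp3. With the pair as a block in these 6 arrays the adjusted p was 0.511 for Thbs1, 0.516 for Timp1 and 0.584 for Lox in limma. In E2 + 3-MC against E2 no gene was called either (0 of all probe sets, 8.77% with an unadjusted p under 0.05). Timp1 was higher without overlap (2.44%, against 12% of all probe sets) and Mmp14 lower (2.44%, against 5.93%). Without both arrays of low Cyp1b1, Lox passed the threshold as higher in E2 + 3-MC against E2, and Timp1 did so in the 3-MC main effect, which sets the 2 groups given 3-MC against the 2 groups not given it. The arrays left out hold the lowest Lox of the E2 + 3-MC rats and the 2 lowest Timp1 values of the 6 rats given 3-MC, so these 2 calls follow in part from which arrays were left out and are a description only.

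Timp1, the inhibitor of most secreted metalloproteinases, varied most of all 41 genes. It was at 689, 2080.1 and 2220.0 in E2 + 3-MC rats, 540.0, 483 and 513 in E2 rats, 1624, 511 and 2554 in 3-MC rats and 609.9, 369.8 and 1859.8 in vehicle rats. E2 rats were alike, and each of the other groups held both low and high rats. The 3-MC main effect was 1.13 (95% confidence interval 0.20 to 2.06) with an adjusted p of 0.468 in limma (0 of all probe sets called, 9.47% with an unadjusted p under 0.05), and 1.73 with an adjusted p of 0.0242 without both arrays of low Cyp1b1, whose 689 and 511 were the 2 lowest values among rats given 3-MC. E2 + 3-MC against E2 gave 1.498 (0.19 to 2.81) with an adjusted p of 0.533, and 2.04 with an adjusted p of 0.0870 without the array labelled E2 + 3-MC rat 1 and that labelled 3-MC rat 2. The change for E2 against vehicle, -0.54, became 0.10 without vehicle rat 3.

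High Timp1 went with signs of myeloid cells, a relation picked out after the values were seen and given with no test. The 5 arrays with the highest Timp1 (1624 to 2554, against 369.8 to 689 in the other 7) were E2 + 3-MC rats 2 and 3, 3-MC rats 1 and 3 and vehicle rat 3. The same 5 arrays had the highest level of the 10 myeloid markers (0.65 to 0.92 log2 units above the vehicle mean, against -0.53 to 0.12), the highest Cyp1b1 (211 to 588, against 88.3 to 161) and the highest Nqo1, another AHR target (199.8 to 361, against 62.3 to 97.1). Summed myeloid intensities ran from 7475 to 12661 in E2 + 3-MC rats, 5359 to 6390.2 in E2 rats, 6716 to 12604 in 3-MC rats and 4433 to 10245 in vehicle rats. All 10 myeloid markers were higher in the 3-MC main effect, none past the threshold and 9 with an unadjusted p under 0.05, and none was at 0 in any rat. Vehicle rat 3 belongs to these 5 arrays without having been given 3-MC. The part of myeloid cells in the Timp1 values was not tested.

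**Figure D4:**
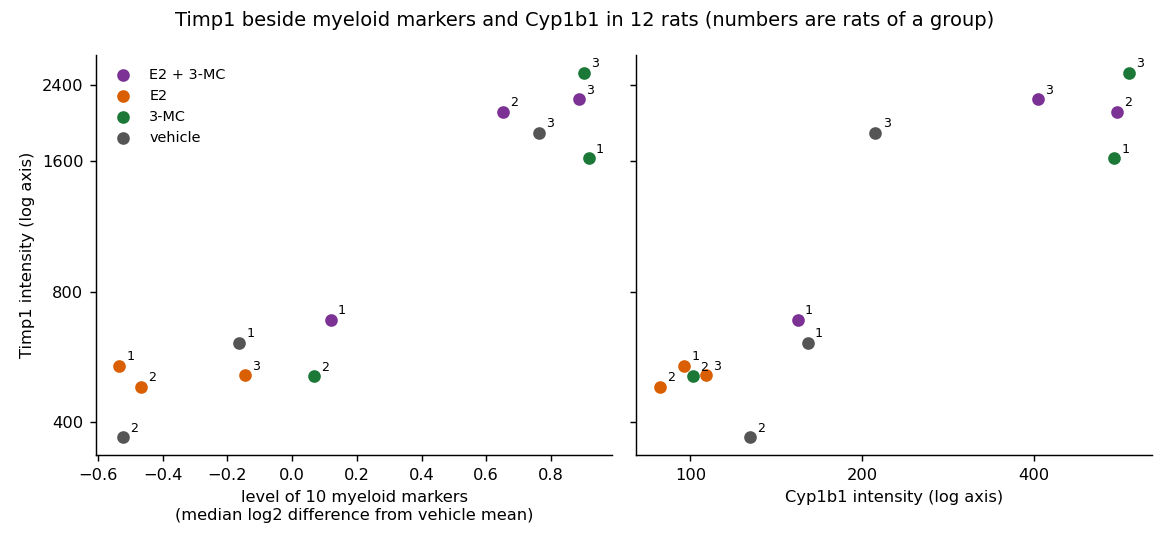
Timp1 intensity (log axis) of each rat against the level of 10 myeloid markers (left) and against Cyp1b1 intensity (right, log axis), with numbers giving the rat within its group. The 5 rats with Timp1 of 1624 to 2554 lie apart from the 7 with 369.8 to 689 in both panels, and vehicle rat 3 is among them.

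Matrix genes outside the list had a median nearer to 0. Of 109 further matrix genes, 92 were measured and 88 tested, and with E2 alone 32 had a higher and 56 a lower mean (median -0.08), with Smoc2 the 1 called (1.14%, against 1.58% of all probe sets). Lower without overlap were 20 of the 88 (22.7%, against 8.05%) and higher without overlap 10 (11.4%, against 10.1%). In the E2 main effect Smoc2 was again the 1 called, at 0.66 with an adjusted p of 0.0124 in limma. The 14 genes of collagen synthesis and processing, which hydroxylate, fold and trim procollagen, had a median of -0.07 with E2 alone, and the 18 genes of TGF-beta signaling and matrix receptors had -0.12. The 11 other collagens had a median of -0.02, beside -0.43 in the fibrillar collagens.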

How the data were processed

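Total RNA from whole mammary glands (RNA integrity number of at least 7, with the glands of each rat from both sides) was run on Affymetrix Rat Gene 1.0 ST arrays, whose probe signals the authors summarized with PLIER. Expression Console and PLIER are named in the submitters' processing notes. The deposited values are linear intensities per probe set. The methods add quantile normalization, a baseline transformation to the control median and, in GeneSpring, a cut of the lowest 20 percent, but the deposited intensities are not centred on the controls, hold all 29214 probe sets and have array medians of 85.7 to 109.5. No array or value column of another sample was used.

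Here log2(intensity + 16) was taken and probe sets at or below the 20th percentile of the mean log2 value were removed. The other 23371 were tested with limma 3.58.1 in R 4.3.3, two-sided, in 1 model that fitted the 4 group means. The methods name an unpaired t-test, which was kept as an alternative. A probe set was called at a Benjamini-Hochberg adjusted p under 0.05 and at least 1.5-fold. Gene group levels per rat are medians of log2 differences from the vehicle mean. Groups of 3 rats cannot give an exact permutation p below 0.1, so no such test was used. Precision is limited by the number of arrays. The labels name 3 rats per group. Per the methods several rats shared a cage, and which rats did so is not given in the sources used here, so p-values measure the spread between these rats. Gene symbols came from the platform annotation (15310 probe sets with 1 symbol, 323 with several, 13581 with none), and promoters from RefSeq (GRCr8). The fit was tested on simulated data. Python 3.11.15 with matplotlib 3.10.9 made the figures.

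The genes, gene lists, comparisons and alternatives were chosen with earlier results of these data known. Values per rat are given for each gene called in a comparison, for the gene of highest mean intensity and the gene of largest change with E2 in each group, and for others chosen after their values were seen (Col1a1, Col1a2, Col5a1, Fbn1, Eln, Mmp11, Mmp9, Mmp12, Adamts1, Pdgfra, Thbs1). Same-numbered rats were checked for pairing: deviations from the group means correlated at 0.341, 0.442 and 0.564 between 3-MC and vehicle arrays, each over 0.1, so rats of these groups were treated as numbered pairs from the values only. Every other pair of groups had at least 1 of its 3 correlations under 0.1 and was not paired. Among them, E2 and E2 + 3-MC arrays correlated at 0.130, 0.081 and 0.137, and each E2 array correlated most with the E2 + 3-MC array of its own number. Alternatives were other pseudocounts (1 and 32) and filters (none, 50th percentile), quantile normalization, median centring, fits of 2 groups alone, trend and robust settings, array weights, a replicate block, the methods' t-test, no fold limit, the mean of all probe sets of a gene and leaving out each rat.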

Additional observations from a re-analysis of the deposited data

How the results depend on the processing

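The count of the 41 genes called depended most on E2. In E2 against vehicle (0 called), array weights called 5, the methods' t-test without its Benjamini-Hochberg adjustment 5, quantile normalization 2, the 2 groups alone 2 and median centring 1, and leaving out 1 rat gave 0 to 1, the 1 being Nid2 without 3-MC rat 2 or E2 + 3-MC rat 3 and Lox without E2 + 3-MC rat 1. In the E2 main effect (1 called), adjusted p alone gave 3 and array weights 2, and leaving out 1 rat gave 0 to 2: 0 without E2 rat 1, E2 rat 2, E2 + 3-MC rat 1 or vehicle rat 1, and 2 without 3-MC rat 2, E2 + 3-MC rat 3 or vehicle rat 2. The t-test without that adjustment called 1 in E2 + 3-MC against 3-MC (Mmp11), and the 2 groups alone called 1 in E2 + 3-MC against E2 (Timp1). Leaving out the arrays labelled 3-MC rat 2 and E2 + 3-MC rat 1 together, chosen after seeing the data, gave 2 in E2 against vehicle, 0 in the E2 main effect, 1 in the 3-MC main effect and 1 in E2 + 3-MC against E2. The cause of these moves was not tested, beyond the smaller number of arrays. Leaving out 1 rat, the change with E2 alone ran from -0.18 to 0.17 for Loxl1 and from -1.04 to 0.10 for Timp1, both turned without vehicle rat 3, and from -0.40 to 0.055 for Thy1, turned without E2 rat 1. With a replicate block, 1 gene was called in the E2 main effect and 0 in each other comparison, so the block changed no call, and a block in the 6 arrays of 3-MC and vehicle rats, also chosen after seeing the data, called 0. Pseudocounts, filters, trend and robust settings, the adjusted t-test and the mean of all probe sets changed no count. With quantile normalization or median centring, genes lower without overlap in E2 against vehicle numbered 13 (10.4% of all probe sets) or 17 (11.3%), beside 19, and of the 5 genes lower without overlap in both E2 comparisons only Fbn1 stayed so under both. The median of the 41 genes in the 3-MC main effect turned to -0.03 or -0.01, beside 0.04. The median over all tested probe sets turned likewise, to -0.01 under either rescaling, beside 0.05. The number of arrays limits the precision of these results.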
